A study of Mus musculus with 2 samples.

Results

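The respiratory chain and ATP synthase genes of both genomes were followed in splenic T cells with and without deletion of Prmt5. Members were all genes whose symbols start with Ndufa, Ndufb, Ndufc, Ndufs, Ndufv, Cox4 to Cox8, Atp5 or Uqcr, the 4 Sdh genes, and the protein genes of the mitochondrial genome. The rule found 105 of the 30905 genes in the count tables, 92 encoded in the nucleus and 13 in mitochondrial DNA. It rests on names, not on measured values. Nuclear members were placed in complex I (46 genes), complex II (4), complex III (8), complex IV (18) and complex V (16). Ndufa4 was kept with complex I, by its name, although its product is known to associate with complex IV.

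CD3+ T cells were sorted by flow cytometry from spleens of C57BL/6 mice and profiled by droplet single-cell RNA sequencing with the 10x Genomics 3′ V3.1 chemistry, in 1 CKO and 1 control library of 3 mice each. CKO mice carry floxed Prmt5 alleles and the CD4-Cre transgene. The genotype field of both samples reads CD4-Cre+ PRMT5fl/fl, so the groups were taken from the titles, which name a Prmt5-CKO sample (CRE) and a control sample (WT), and what the control mice carry was not settled. Sequences that drive CD4-Cre act at the thymic stage that gives rise to CD4 and CD8 αβ T cells, and are not active in B cells. The age of the mice is not given in the sources used here.

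The respiratory chain sits in the inner mitochondrial membrane. Complexes I and II take electrons from NADH and succinate, complex III passes them to cytochrome c, and complex IV hands them to oxygen. Complexes I, III and IV pump protons, and complex V, the ATP synthase, uses the gradient to make ATP. Most subunits are made in the cytosol from nuclear genes and imported, whereas a small hydrophobic core of complexes I, III, IV and V is encoded in mitochondrial DNA, so each of these complexes needs transcripts of both genomes. Complex II is encoded by nuclear genes only. Naive T cells rely largely on oxidative phosphorylation, and activation is known to enlarge the mitochondrial machinery.

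The libraries held 52387620 unique molecular identifiers (UMIs) in 7896 CKO barcodes and 48273424 in 7407 control barcodes. Kept were barcodes of at least 500 genes whose mitochondrial share was under 10%. They held 7565 CKO and 6616 control T cells with medians of 6049 and 6289 UMIs. Cd3e, a chain of the T cell receptor complex, had a UMI in at least 93.55% of the cells of every T cell cluster, and Cd79a, which marks B cells, in at most 5.71%. The libraries shared 11 barcodes. Prmt5 stood at 4.87 CPM (UMIs per 1000000 UMIs of the sum; 250 UMIs) in CKO and 15.01 CPM (701 UMIs) in control T cells. The sources used here do not name the floxed exons, so its 3′ tags may lie outside the deleted part. Both libraries held cells with Xist UMIs and cells with Y-linked UMIs. With 1 library per group there is no replicate and no test. Intervals are exact, at 95%, and cover counting error only, and genotype cannot be told apart from library preparation.

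In all T cells the nuclear members were slightly and broadly higher in the CKO library, and the mitochondrial-genome members were lower. The nuclear members together took 2.02% of UMIs (2.01 to 2.02) in CKO cells and 1.79% (1.78 to 1.79) in control cells. This is a log2 ratio of CKO over control of 0.17 (0.17 to 0.18), or 1.13-fold. The 13 mitochondrial genes together took 4.36% of CKO UMIs (4.36 to 4.37) and 5.17% of control UMIs (5.16 to 5.17), a log2 ratio of −0.24 (−0.25 to −0.24). For both genomes the intervals of the libraries lay far apart against counting error. These are shares of a common total, so they compare relative levels and not amounts of RNA per cell.

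Of the 92 nuclear members, 78 were measured, meaning a mean of at least 20 CPM and at least 100 UMIs over both libraries, and 77 of these were higher in CKO cells by some amount, against 63.6% of the 4782 genes measured. The exception was Ndufaf8. At least 1.2-fold higher were 13 members, against 10.1% of all genes measured, and none was at least 1.2-fold lower, against 3.07%. The median log2 ratio was 0.18, beside 0.05 for all genes measured. The difference thus consisted of many small ratios in 1 direction, and large ones were few. The breadth depended somewhat on the total. Relative to UMIs outside mitochondrial and cytosolic ribosomal protein genes, 71 of 78 were higher, and Atp5b, Ndufa9, Ndufaf8, Ndufc1, Sdhc, Uqcrc1 and Uqcrq were lower. On that scale 4 members were at least 1.2-fold higher, against 5.86% of all genes.

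Stretches of the promoters are shown because so many nuclear members differed in the same direction, and because Ndufaf4, which differed most, is among those with the palindrome GCGCATGCGC, the preferred site of NRF1, a regulator of respiratory chain genes. RefSeq windows on GRCm38.p6, from 250 bases before to 50 bases after the annotated start, were matched for 76 of the 92 nuclear members. The palindrome was present in 7 of the 76 (9.21%), against 257 of 17491 protein-coding genes (1.47%). The lines give the 30 bases around each match on the gene's strand, with the palindrome in capitals.
Ndufaf4, chr4:24897960-24897989, plus strand: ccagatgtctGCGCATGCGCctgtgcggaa
Ndufaf5, chr2:140170652-140170681, plus strand: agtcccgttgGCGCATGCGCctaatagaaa
Ndufa11, chr17:56717692-56717721, plus strand: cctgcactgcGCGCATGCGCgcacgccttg
Uqcrc1, chr9:108936668-108936697, plus strand: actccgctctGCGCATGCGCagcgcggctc
Cox6a1, chr5:115349101-115349130, minus strand: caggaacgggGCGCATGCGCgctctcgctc
Atp5g2, chr15:102671070-102671099, minus strand: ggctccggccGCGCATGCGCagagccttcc
Atp5k, chr5:108434430-108434459, minus strand: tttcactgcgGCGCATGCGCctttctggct
The palindrome started 113 bases before the annotated start in Ndufaf4 and 60 bases before it in Ndufa11, and after the start in Ndufaf5 and Uqcrc1. Having these letters did not go with a higher ratio, and whether NRF1 has a part in the difference was not tested. The 6 measured members with them had a median log2 ratio of 0.17 and the 61 without them 0.20, and the list holds both Ndufaf4 (0.70) and Uqcrc1 (0.01).

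A second motif, AAGATGGC, the core of YY1 sites, was searched on both strands. It was present in 11 of the 76 matched members (14.5%), against 3.57% of protein-coding genes. The examples are members with high and with low ratios, with the motif in capitals.
Atp5j, chr16:84835046-84835075, minus strand: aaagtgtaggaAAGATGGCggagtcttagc
Ndufb8, chr19:44555393-44555422, minus strand: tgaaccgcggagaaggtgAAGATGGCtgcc
Ndufc1, chr3:51408915-51408944, minus strand: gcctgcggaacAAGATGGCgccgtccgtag
Ndufaf8, chr11:120098933-120098962, plus strand: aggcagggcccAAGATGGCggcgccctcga
Of these examples, the motif started before the annotated start in Atp5j and after it in Ndufb8, Ndufc1 and Ndufaf8. The 11 measured members with AAGATGGC had a median log2 ratio of 0.18 and the 56 without it 0.20. None of the 7 members with the palindrome is among the 11 with AAGATGGC. With sets this small, that was not compared with all genes. The ETS letters CCGGAAGT were present in 6.58% of the matched members and 5.69% of protein-coding genes, the SP1 letters GGGCGG in 46.1% and 49.2%, and TATAAA in 9.21% and 14.8%, each on both strands.

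Complex I, which oxidises NADH, had 40 of its 46 nuclear members measured, of which 39 were higher, against 63.6% of all genes, and 7 at least 1.2-fold, against 10.1%. Together they took 0.632% of CKO and 0.552% of control UMIs, a log2 ratio of 0.20 (0.19 to 0.20). The 7 subunits of the catalytic core, which carry the flavin and iron-sulfur clusters, had a summed log2 ratio of 0.18 (0.15 to 0.20). The 29 accessory subunits had 0.19 (0.18 to 0.20). Core and accessory subunits thus differed by the same amount within counting error. Ndufa7, an accessory subunit, stood at 315 CPM in CKO and 246 CPM in control cells, a log2 ratio of 0.36 (0.33 to 0.40). Ndufb7 and Ndufb8, accessory subunits of the membrane arm, followed with 0.32 each. Ndufb8 shares its strand and 4260 bases with the gene model Gm20538, so its reads could have been divided between them. Ndufc1, a small membrane-arm subunit, stood at 105 CPM in both libraries, a log2 ratio of 0.00 (−0.05 to 0.06).

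The assembly factors of complex I, which help to build it but do not stay in it, were less uniform than its subunits. Of 8 in the tables, Ndufaf3, Ndufaf4 and Ndufaf8 were measured. Ndufaf4 (ENSMUSG00000028261, chromosome 4 from 24898083 to 24905001) stood at 65.8 CPM (3377 UMIs) in CKO and 40.5 CPM (1892 UMIs) in control cells. Its log2 ratio of 0.70 (0.62 to 0.78) was the highest of the 78 nuclear members measured. Ndufaf3, which acts in the same assembly step, stood at 25.5 and 21.0 CPM, a log2 ratio of 0.28 (0.16 to 0.41). It overlaps Impdh2 on the opposite strand by 48 bases, and whether counting used strand is not given in the sources used here. Ndufaf8 (chromosome 11 from 120098928 to 120100705), a partner of Ndufaf5, stood at 60.5 CPM in CKO and 66.2 CPM in control cells, a log2 ratio of −0.13 (−0.20 to −0.06). Ndufaf5 had 295 and 342 UMIs and was below the level asked of a measured gene.

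Complex II, which oxidises succinate, was higher by some amount in 4 of 4 genes, against 63.6% of all genes, with Sdhc at 0.00, and its sum had a log2 ratio of 0.23 (0.20 to 0.26). Sdha, the flavoprotein, stood at 99.7 CPM in CKO and 81.7 CPM in control cells (0.29, 0.23 to 0.35). Sdhb, the iron-sulfur subunit, stood at 136 and 113 CPM (0.26, 0.21 to 0.31). The membrane anchors differed from each other. Sdhd stood at 63.4 and 53.5 CPM (0.25, 0.17 to 0.32), and Sdhc at 39.9 and 39.8 CPM (0.00, −0.09 to 0.10).

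Complex III, which reduces cytochrome c, had, with complex V, the smallest nuclear difference, a summed log2 ratio of 0.14 (0.13 to 0.15). Uqcrfs1, the Rieske iron-sulfur protein, stood apart from the rest with 168 CPM in CKO and 137 CPM in control cells, a log2 ratio of 0.30 (0.26 to 0.35). Uqcr10, a small subunit, had 0.20 (0.17 to 0.24). Uqcrq stood at 302 and 292 CPM, a log2 ratio of 0.05 (0.01 to 0.08). Uqcrc1, a large core protein, stood at 99.1 and 98.6 CPM, a log2 ratio of 0.01 (−0.05 to 0.07).

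Complex IV, cytochrome c oxidase, had a summed log2 ratio of 0.19 (0.18 to 0.19) over its nuclear members, with 11 of 11 measured members higher, against 63.6% of all genes, and 4 at least 1.2-fold, against 10.1%. The small subunits Cox7a2 and Cox8a led. Cox7a2 stood at 368 CPM in CKO and 297 CPM in control cells (0.31, 0.28 to 0.34), and Cox8a at 768 and 625 CPM (0.30, 0.28 to 0.32). Cox7a2l, a relative of Cox7a2 that joins complexes III and IV into supercomplexes, stood at 556 and 533 CPM, a log2 ratio of 0.06 (0.04 to 0.09). Cox6c and Cox7b had 0.12 each, and Cox6c overlaps Vps13b on the opposite strand by 5344 bases.

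Several complex IV subunits have tissue forms, and T cells of both libraries used the ubiquitous ones. Cox4i1 stood at 795 and 726 CPM (0.13, 0.11 to 0.15), whereas Cox4i2, the lung and hypoxia form, had 7 UMIs in all CKO and 3 in all control T cells. Cox4i1 shares its strand and 5986 bases with the gene model Gm20388, so its reads could have been divided between them. Cox6a1 stood at 256 and 222 CPM (0.20), and its heart and muscle form Cox6a2 had 22 and 15 UMIs. Cox6b1 stood at 351 and 311 CPM (0.17), and the testis form Cox6b2 had 82 and 77 UMIs. Cox7a1, the muscle form paired with Cox7a2, had 20 and 28 UMIs. A 3′ tag is counted once per molecule, so these levels need no division by gene length. Cox7b2, Cox8b, Cox8c and Ndufa4l2 had 0 UMIs in the T cells of both libraries. The exact upper limit for each was 0.0719 CPM in CKO and 0.079 CPM in control T cells. Cox7b and Ndufa4, the broad counterparts of Cox7b2 and Ndufa4l2, stood at 321 against 295 CPM and 451 against 376 CPM (log2 ratios 0.12 and 0.26).

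Complex V, the ATP synthase, had 15 of 15 measured members higher, against 63.6% of all genes, and none at least 1.2-fold, against 10.1%, with a summed log2 ratio of 0.15 (0.14 to 0.16). Its parts differed a little. The F1 head, which makes ATP, had 0.13 (0.11 to 0.14), the proton-carrying c ring 0.13 (0.11 to 0.14), and the stalk and membrane parts 0.18 (0.17 to 0.19). Atp5o, which ties the head to the peripheral stalk, stood at 236 CPM in CKO and 200 CPM in control cells (0.24, 0.20 to 0.28). Atp5o overlaps Gm15976 on the opposite strand by 3422 bases. Atp5j, its neighbour in the stalk, stood at 373 and 318 CPM (0.23, 0.20 to 0.26), and it overlaps Gabpa on the opposite strand by 701 bases. Atp5b, the catalytic subunit, stood at 415 and 410 CPM, a log2 ratio of 0.02 (−0.01 to 0.05). The c subunit is made from 3 genes. Atp5g1 had 0.16 (0.13 to 0.20), Atp5g3 0.21 (0.17 to 0.25) and Atp5g2, at 531 and 507 CPM, 0.07 (0.04 to 0.09).

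**Figure D1:**
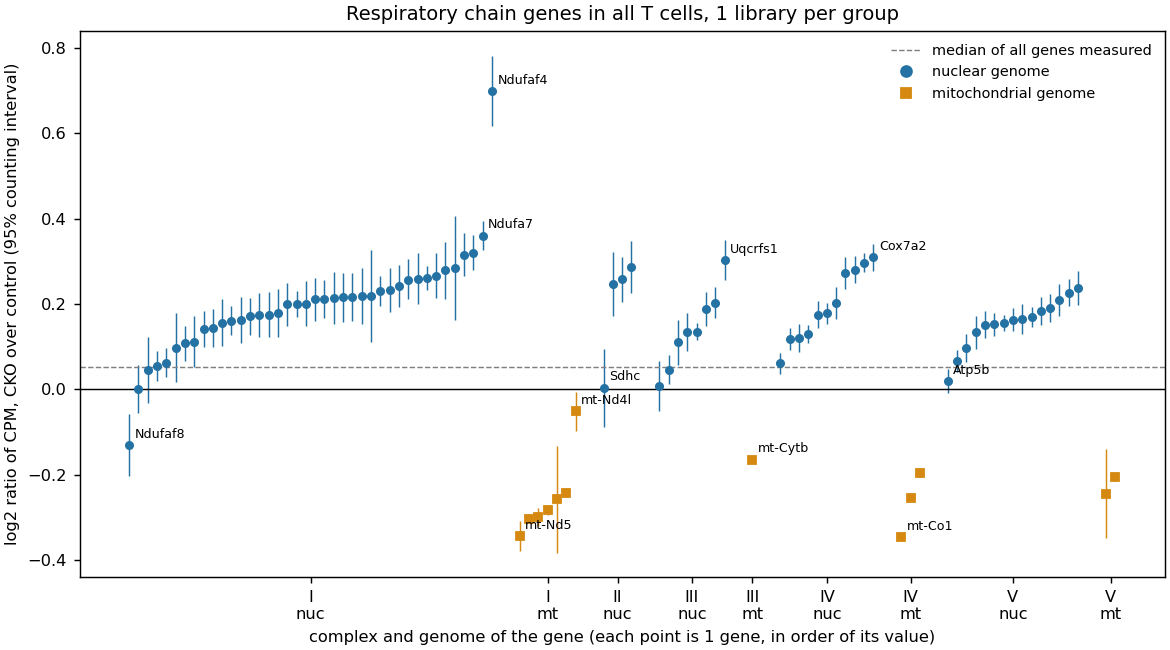
Log2 ratio of CPM, CKO over control, in all T cells (vertical axis) for each measured member, ordered by value within complex and genome (horizontal axis); bars are 95% counting intervals and the dashed line is the median of all genes measured (0.05). Nuclear members lie above 0 except Ndufaf8 (−0.13), with Ndufaf4 (0.70) highest, and the 13 mitochondrial-genome members lie below 0.

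All 13 mitochondrial-genome members were lower in the CKO library, against 36.4% of all genes measured, and 5 of them at least 1.2-fold, against 3.07%. They lie on the mitochondrial chromosome of GRCm38. The cell filter acts on the sum of these same 13 genes. Without the limit on the mitochondrial share their summed log2 ratio was −0.28, over the T cells and the removed barcodes of at least 500 genes. Those barcodes were not clustered, so they may not all be T cells. After a stricter filter (1000 genes, 5% mitochondrial) the log2 ratio was −0.13. The limit alone removed barcodes that had at least 500 genes, 1.38% of all CKO barcodes and 4.13% of all control barcodes. The filter as a whole removed 2.99% (2.62 to 3.39) and 9.38% (8.73 to 10.1). Barcodes that failed the filter were thus more frequent in the control library, and their part in the difference among the kept cells was not tested.

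Of the complex I genes in mitochondrial DNA, mt-Nd5 (11742 to 13565) had a log2 ratio of −0.34 (−0.38 to −0.31), at 237 CPM in CKO and 301 CPM in control cells. mt-Nd1 (2751 to 3707) stood at 2357 and 2906 CPM, a log2 ratio of −0.30. mt-Nd3 had −0.30, mt-Nd2 −0.28 and mt-Nd4 −0.24. mt-Nd6, the sole protein gene on the light strand, stood at 19.7 and 23.5 CPM, a log2 ratio of −0.26 (−0.38 to −0.13), and overlaps mt-Nd5 on the opposite strand by 14 bases. mt-Nd4l (9877 to 10173) differed least, at 154 and 159 CPM (−0.05, −0.10 to −0.01). It lies on a shared mRNA with mt-Nd4 and overlaps it by 7 bases, so tags of the pair may be divided between them.

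In complex III, mt-Cytb, the cytochrome b gene (14145 to 15288), stood at 5374 CPM in CKO and 6023 CPM in control cells (−0.16, −0.17 to −0.16). In complex IV, mt-Co1, the catalytic subunit (5328 to 6872), stood at 6106 and 7757 CPM (−0.35, −0.35 to −0.34), the lowest ratio of the 13. mt-Co2 stood at 5586 and 6402 CPM (−0.20) and mt-Co3 at 9521 and 11349 CPM (−0.25). In complex V, mt-Atp6 stood at 8552 and 9854 CPM (−0.20). mt-Atp8, which shares 43 bases and a transcript with mt-Atp6, stood at 28.3 and 33.5 CPM (−0.24, −0.35 to −0.14). In each complex built from both genomes the nuclear and the mitochondrial sums thus had opposite signs: 0.20 and −0.27 in complex I, 0.14 and −0.16 in complex III, 0.19 and −0.27 in complex IV, and 0.15 and −0.20 in complex V.

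The difference was carried by the bulk of the cells. In naive-like CD4 cells the median cell had 1.86% nuclear respiratory chain UMIs among CKO and 1.64% among control cells, with 10th to 90th percentiles of 1.5 to 2.26 and 1.35 to 1.99. For the mitochondrial genome the medians were 4.30% and 5.03%. In naive-like CD8 cells the medians were 1.95% and 1.71% for nuclear members and 4.50% and 5.25% for mitochondrial-genome members. The distributions overlapped widely and were displaced along their whole length. The sign was the same in cells of like depth. In naive-like CD4 cells with under 4000, 4000 to 8000 and at least 8000 UMIs the nuclear log2 ratios were 0.13, 0.18 and 0.16, and the mitochondrial ones −0.19, −0.23 and −0.29. In naive-like CD8 cells the nuclear ratios were 0.09, 0.21 and 0.21, and the mitochondrial ones −0.20, −0.22 and −0.23.

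**Figure D2:**
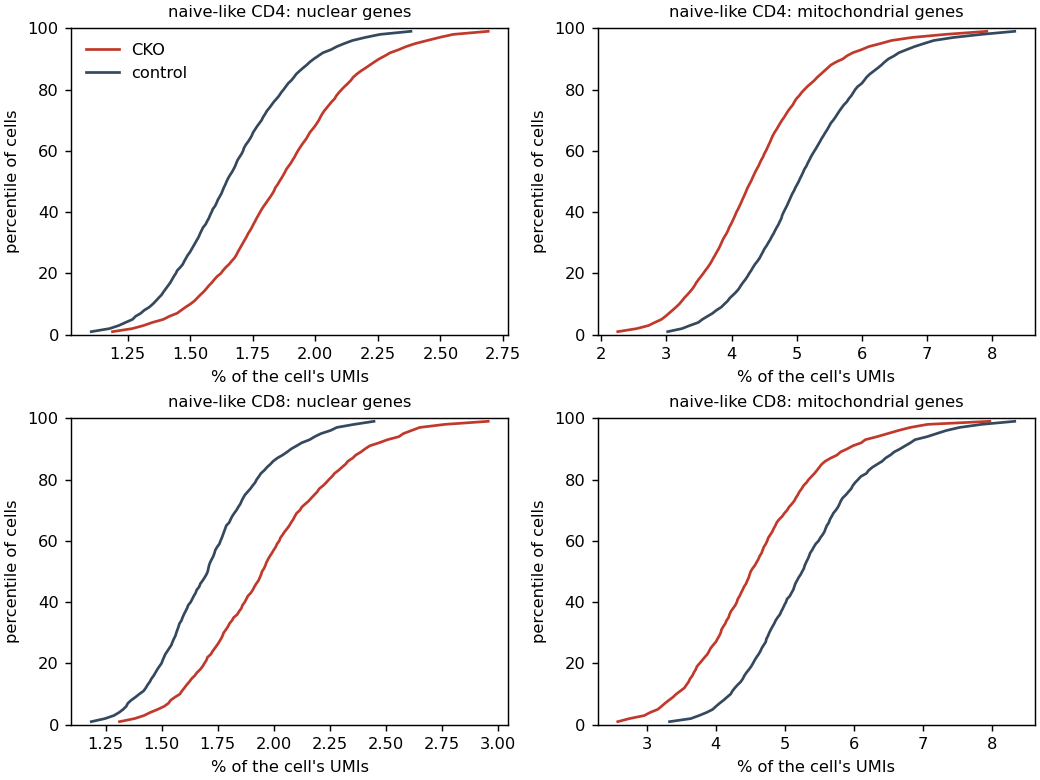
Percentiles of cells (vertical axis) against the percentage of a cell's UMIs from nuclear (left) and mitochondrial-genome (right) members, in naive-like CD4 (top) and naive-like CD8 cells (bottom); axes do not start at 0. CKO curves lie to the right for nuclear genes (medians 1.86% and 1.64% in CD4) and to the left for mitochondrial genes (4.30% and 5.03%).

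Cell classes were taken from clusters made without the member genes. The nuclear sum was higher in CKO cells of each of the classes that make up most resting T cells, and the size varied. In naive-like CD4 cells (4088 CKO and 2893 control cells) it was 1.87% against 1.65% (log2 0.17, 0.17 to 0.18), and 12 of 78 members were at least 1.2-fold higher, against 11.1% of all genes. In naive-like CD8 cells (1249 and 1336) it was 1.98% against 1.72% (0.21, 0.20 to 0.22), with 27 of 77 members against 16% of all genes. In memory-like CD8 cells (209 and 649) it was 2.01% against 1.67% (0.27, 0.25 to 0.29), with 39 of 78 against 28.1%. Treg-like cells (499 and 549), the class named by Foxp3, had 2.17% against 1.94% (0.16, 0.15 to 0.18), with 13 of 78 against 14.4%. Interferon-responding-like cells had 1.86% against 1.66% (0.17, 0.15 to 0.19), with 19 of 77 against 20%. In Treg-like and interferon-responding-like cells the share past 1.2-fold was thus near that of all genes, and in naive-like CD8 and memory-like CD8 cells it was above it.

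In memory-like CD4 cells the nuclear sum was 2.42% of UMIs in 136 CKO cells and 1.99% in 366 control cells, a log2 ratio of 0.29 (0.26 to 0.31). At least 1.2-fold higher were 50 of 77 members, against 25% of all genes. Complexes I, III, IV and V had 0.28, 0.28, 0.31 and 0.28, and complex II 0.16 (−0.02 to 0.34). Ndufs8, a core subunit with iron-sulfur clusters, named after its value was seen, stood at 126.5 and 79.2 CPM (0.68, 0.35 to 1.0). CKO cells of this class had a median of 6970 UMIs and control cells 5905. Its 5 clusters were filled unequally. Clusters 5.2 and 5.3, led by Maf, held 9 and 10 CKO against 117 and 105 control cells, and cluster 5.6, led by S100a4, held 58 against 12. Within clusters the nuclear log2 ratio was smaller than in the class, at 0.18 in cluster 5.0 (54 CKO and 85 control cells), 0.01 in 5.2, 0.22 in 5.3, 0.06 in 5.6 and 0.03 in 5.8. The values for the whole class therefore mix the makeup of the class with the level in its cells. The same holds for the mitochondrial sum of this class, whose log2 ratio ran from −0.20 in cluster 5.3 to 0.29 in cluster 5.8 (5 and 47 cells). The clusters of Treg-like cells were also filled unequally, and their nuclear log2 ratios ran from 0.03 in cluster 5.7 to 0.26 in cluster 7. Their mitochondrial log2 ratios ran from −0.52 in cluster 5.4 (7 CKO and 79 control cells) to 0.01 (−0.03 to 0.05) in cluster 5.7. In Treg-like cluster 5.5 (48 CKO and 28 control cells) Foxp3 had a UMI in 46.05% of the cells and Cd8b1 in 47.37%. The median there was 13424 UMIs, so this part of the class may not be Treg cells alone.

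The proliferating-like class and the Tnfrsf9 class had high nuclear levels, and their class sums differed little between the libraries. The proliferating-like cluster, defined by Mki67, took 2.64% in both libraries (log2 −0.00, −0.02 to 0.02; 146 and 75 cells), with 45 of 79 members higher, against 51.4% of genes, and 4 at least 1.2-fold, against 17.5%. The Tnfrsf9 clusters, 10.4 and 10.5, were named by UMIs of Tnfrsf9, an activation receptor, and of Xcl1. Together they took 2.95% and 2.88% in 54 CKO and 35 control cells, a log2 ratio of 0.04 (0.01 to 0.07). Of 76 members, 43 were higher, against 50.7% of genes, and 4 at least 1.2-fold, against 14.8%. Their signs differed, with a nuclear log2 ratio of 0.14 (0.09 to 0.18) in cluster 10.4 and −0.10 (−0.14 to −0.06) in cluster 10.5. Cluster 10.4 held 31 CKO and 14 control cells and cluster 10.5 held 23 and 21. Some clusters outside this class also had Tnfrsf9 UMIs, as mixed cluster 10.1 in 66.07% of its cells. The Fcer1g cluster, which has innate-like genes, had 2.10% and 2.0% (0.07, 0.05 to 0.09), with 10 of 78 against 18.2%. Effector-like CD8 cells had 2.34% and 2.08% (0.17, 0.13 to 0.21; 151 and 46 cells), with 18 of 73 against 18.7%, and γδ-like cells 2.19% and 1.92% (0.19, 0.13 to 0.25; 101 and 16 cells), with 23 of 60 against 31.3%. Whether the classes differ from each other in their ratios could not be tested with 1 library per group.

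B-like cells came through the sort in small numbers, 72 with the CKO cells and 67 with the control cells, and 28.8% of them had a Cd3e UMI. Their nuclear sum was 1.72% (1.69 to 1.76) and 1.68% (1.64 to 1.72), a log2 ratio of 0.03 (−0.01 to 0.08), with 30 of 58 measured members higher, against 46.1% of all genes. At least 1.2-fold higher were 5 members, against 12.3% of all genes. Their mitochondrial sum was 5.77% and 6.50%, a log2 ratio of −0.17 (−0.20 to −0.15). Myeloid-like cells (23 and 29) had a nuclear log2 ratio of 0.03 (−0.05 to 0.10) and a mitochondrial one of −0.21 (−0.26 to −0.16). The median cell did not show the difference of these mitochondrial sums. It had 6.28% mitochondrial-genome UMIs in CKO and 6.29% in control B-like cells, at median depths of 5633 and 4495 UMIs, and 4.37% and 4.19% in myeloid-like cells, at 5524 and 2604 UMIs.

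**Figure D3:**
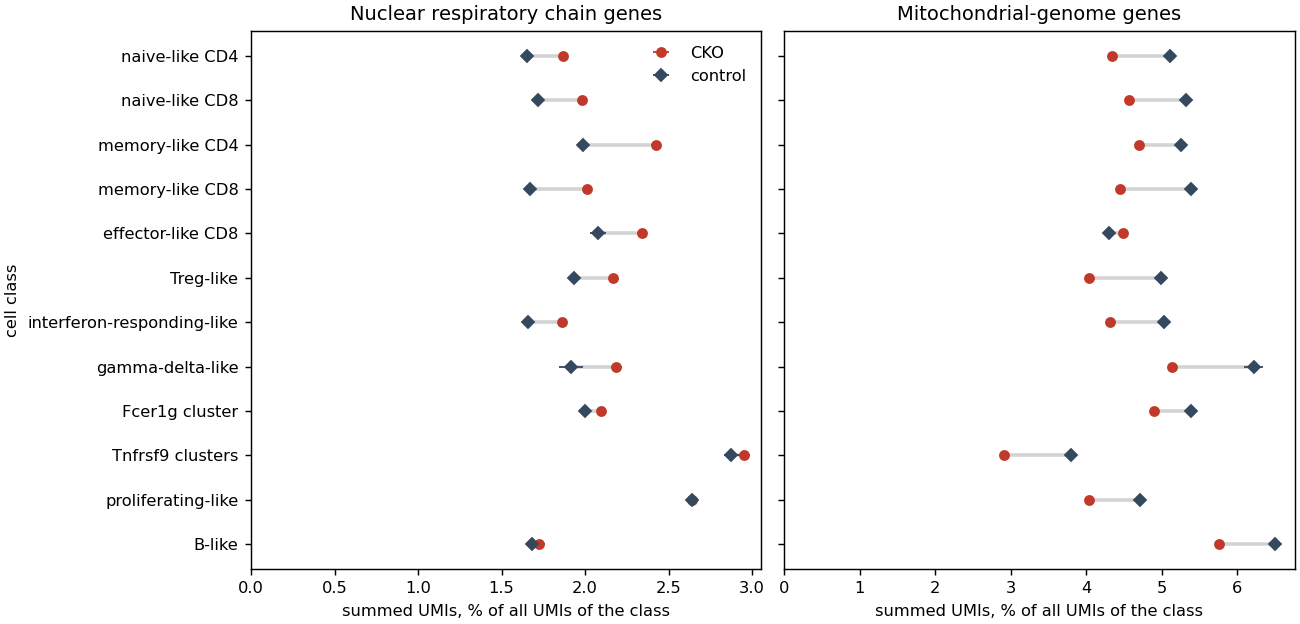
Summed UMIs of nuclear (left) and mitochondrial-genome members (right) as a percentage of all UMIs of the class (horizontal axes, from 0), by cell class (vertical axis), for the CKO and the control library; bars are 95% counting intervals. Nuclear shares are higher in CKO naive-like, memory-like and Treg-like cells and alike in proliferating-like (2.64% in both) and B-like cells; of the classes drawn, mitochondrial shares are lower in CKO cells except in effector-like CD8 cells (4.49% and 4.31%). NKT-like, myeloid-like and mixed clusters are not drawn.

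The mitochondrial sum was lower in CKO cells of most classes. The log2 ratio was −0.24 in naive-like CD4, −0.22 in naive-like CD8, −0.16 in memory-like CD4, −0.28 in memory-like CD8 and −0.31 (−0.32 to −0.30) in Treg-like cells. It was −0.22 in interferon-responding-like and proliferating-like cells, −0.28 in γδ-like cells and −0.14 in the Fcer1g cluster. Tnfrsf9 clusters had the lowest ratio, −0.38 (−0.41 to −0.36), at 2.91% and 3.79% of UMIs. There, mt-Nd5 stood at 162 and 282 CPM (−0.80, −1.14 to −0.47). NKT-like cells (4 CKO and 23 control cells) had 0.11. Effector-like CD8 cells were another exception, with 4.49% (4.45 to 4.52) and 4.31% (4.24 to 4.38), a log2 ratio of 0.06 (0.03 to 0.08), and 8 of 11 members were higher, against 51.7% of all genes. In these cells mt-Nd3 stood at 637 and 497 CPM (0.36, 0.12 to 0.60) and mt-Cytb at 4789 and 4262 CPM (0.17, 0.09 to 0.25), whereas mt-Nd5 was lower, at 219 and 283 CPM (−0.37, −0.71 to −0.02).

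**Figure D4:**
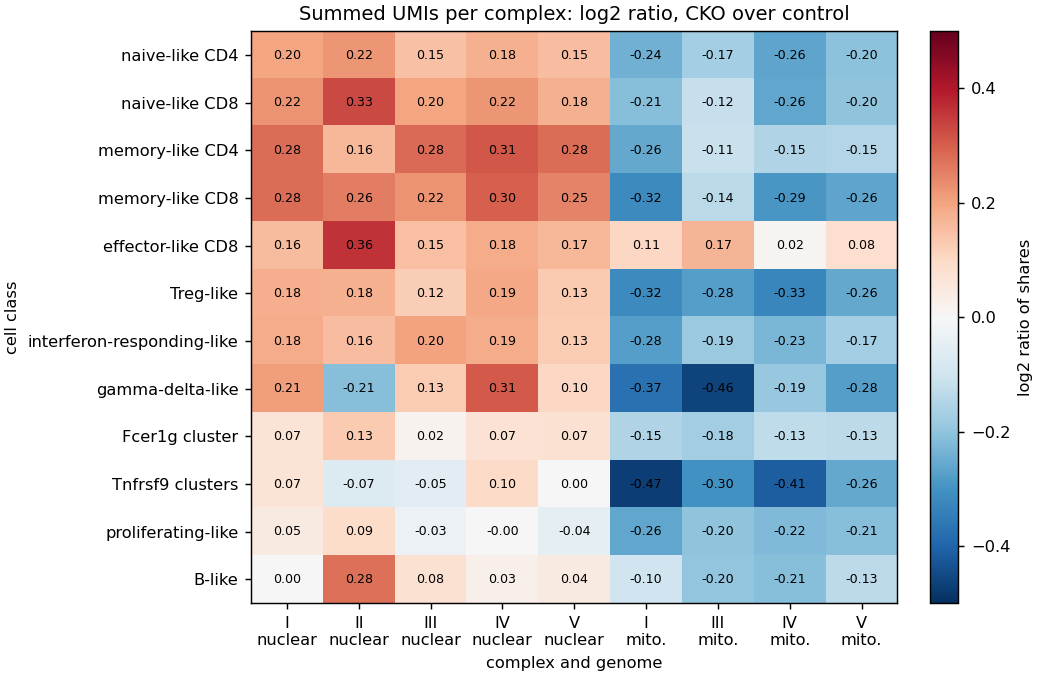
Log2 ratio of summed UMI shares, CKO over control, printed and coloured per complex and genome (columns) and cell class (rows). Nuclear columns are mostly above 0 and mitochondrial columns below 0; effector-like CD8 cells are above 0 in all columns, and among the nuclear columns complex II, the smallest group, varies most between classes.

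Agreement between classes was examined gene by gene in naive-like CD4, naive-like CD8, memory-like CD4, memory-like CD8 and Treg-like cells. Of 76 nuclear members measured in all 5 classes, 63 (82.9%) were higher in the CKO library in each, against 23% of the 3758 genes measured in all 5. Cox7a2 and Cox8a were at least 1.2-fold higher in each (2.63% of members, against 1.25% of genes). Of 12 mitochondrial-genome members, 11 (91.7%) were lower in each of the 5, against 11.1% of genes. Cox8a stood at 652 against 505 CPM in naive-like CD4, 860 against 666 in naive-like CD8, 931 against 648 in memory-like CD8 and 766 against 630 in Treg-like cells. In effector-like CD8 cells Cox8a was 943 against 905 CPM (0.06, −0.12 to 0.24). The classes share their 2 libraries, so their agreement is no replication.

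The ratio of Ndufaf4 varied from class to class. Naive-like CD4 cells had 66.5 and 39.1 CPM (log2 0.77, 0.64 to 0.90), naive-like CD8 cells 71.8 and 43.4 CPM (0.73, 0.55 to 0.91) and memory-like CD8 cells 78.9 and 40.9 CPM (0.95, 0.64 to 1.25). Interferon-responding-like cells had 59.7 against 24.0 CPM (1.31, 0.78 to 1.88), from 153 and 36 UMIs. In Treg-like cells Ndufaf4 was 42.8 against 36.8 CPM (0.22, −0.11 to 0.55), and in proliferating-like cells 34.9 against 30.6 (0.19, −0.33 to 0.73), where the counts do not tell the libraries apart. Its level was highest in the Tnfrsf9 clusters, with 193 CPM in CKO and 151 CPM in control cells (0.35, −0.03 to 0.73). B-like cells had 58.7 and 30.6 CPM from 33 and 13 UMIs (0.94, −0.03 to 1.99), so a difference in these cells was not detectable at this depth. Within the naive-like CD4 class the ratio ran from 0.39 in cluster 2 to 1.0 in cluster 4.

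**Figure D5:**
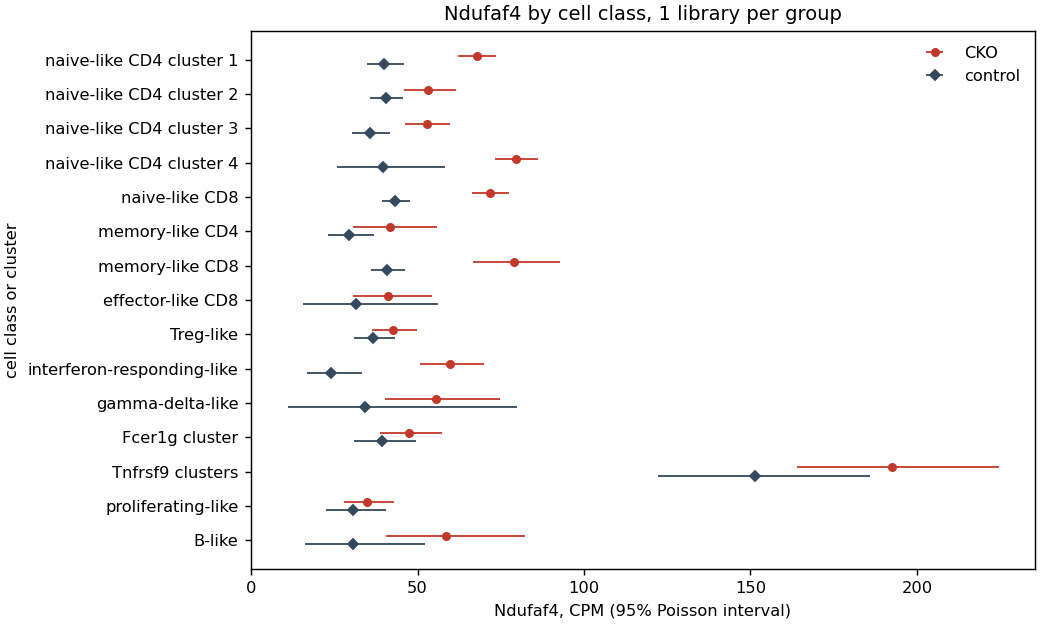
Ndufaf4 in CPM (horizontal axis, from 0) by cell class or naive-like CD4 cluster (vertical axis) in the CKO and the control library; bars are exact 95% Poisson intervals. CKO values lie above control without overlap in naive-like, memory-like CD8 and interferon-responding-like cells, narrowly so in naive-like CD4 cluster 2 (53.3 and 40.5 CPM); intervals overlap in Treg-like and proliferating-like cells.

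The naive-like CD4 class was made of 4 clusters that the libraries filled unequally, and cluster 4 held 1105 CKO and 99 control cells. The nuclear log2 ratios were 0.17, 0.18, 0.12 and 0.15 in clusters 1 to 4. The mitochondrial log2 ratio was −0.23 in each. The class difference was therefore present inside each cluster.

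Other genes of the organelle were taken from lists and are given as counts in all T cells, against the 63.6% of all genes that were higher by any amount and the 10.1% that were at least 1.2-fold higher. The mitochondrial ribosome, which translates the mitochondrial mRNAs, had 63 of 71 measured genes higher and 13 at least 1.2-fold, with a median of 0.17. Mrps7 (0.46) and Mrpl28 (0.45) were highest, and Mrpl17 (−0.26) and Mrps6 (−0.15) lowest. Protein import had 18 of 18 higher and 4 at least 1.2-fold, led by Tomm40 (0.41), the outer membrane pore, and Timm50 (0.30), with Tomm7 (0.02) and Timm8a1 (0.03) lowest. Cycs, cytochrome c, had 0.18, and Cyc1, the cytochrome c1 of complex III, 0.13.

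Assembly factors of complex IV were higher in 13 of 15, 3 of them at least 1.2-fold, with a median of 0.12. Higd1a had 0.35, Cox17, a copper chaperone, 0.30, Pet100 −0.14 and Cox10 −0.10 (−0.23 to 0.02). Of the assembly factors of complexes I, II and III outside the Ndufaf names, 2 of 2, 3 of 3 and 3 of 3 were higher. Uqcc3 had 0.27, Uqcc2 0.09, Ttc19 0.03, Sdhaf4 0.20, Sdhaf2 and Sdhaf1 0.09 each, Ecsit 0.07 and Tmem126a 0.06. Tmem70, which helps to assemble the ATP synthase, had 0.32, and Atpif1, its inhibitor, 0.21. Oxidant defence genes were higher in 6 of 6, from Gpx4 (0.07) and Txn2 (0.08) to Gpx1 (0.15) and Prdx5 (0.28).

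Fuel pathways differed less than the chain. The tricarboxylic acid cycle was higher in 12 of 13 genes with none at least 1.2-fold and a median of 0.08, from Suclg2 (−0.18) and Cs (0.03) to Idh3a (0.17) and Dlst (0.19). Glycolysis was higher in 8 of 13, near the 63.6% of all genes, with a median of 0.05, the value of all genes, from Pfkp (−0.14) and Aldoa (−0.12) to Ldha (0.12) and Ldhb (0.19). Of 7 carriers and channels, Slc25a4, which exchanges ADP and ATP, had 0.25, Vdac2 0.08, Vdac1 0.03, and Ucp2, an uncoupling protein relative, was 277 against 341 CPM (−0.30, −0.33 to −0.27).

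Of the genes that maintain and transcribe mitochondrial DNA, 3 of 4 measured were higher, against 63.6% of all genes. Slirp, which stabilises mitochondrial mRNAs, had 0.34 (0.25 to 0.43) and Polg, the DNA polymerase, 0.31 (0.19 to 0.42). Tfam, which packages the genome and starts transcription, was 44.1 and 42.7 CPM (0.05, −0.04 to 0.13), and Ssbp1 had −0.00 (−0.07 to 0.06). Of 5 measured regulators of nuclear respiratory genes, Gabpa had 0.22 (0.09 to 0.35), Gabpb2 0.10, Yy1 −0.11 (−0.17 to −0.06) and Nrf1 −0.17 (−0.27 to −0.07), at 32.3 and 36.4 CPM. Cytosolic ribosomal protein genes, which are also small and abundant, went the other way in most cases, with 25 of 82 higher, 1 at least 1.2-fold and a median of −0.04. Rps27l, a relative of Rps27, had 0.65, Rpl12 −0.26 and Rps27rt −0.27, and Rps27rt can share reads with its near-identical copies.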

How the data were processed

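The deposited matrices hold raw UMI counts per gene and barcode, which the authors did not normalize. Per the submitters' processing notes they used CASAVA 1.8, Cell Ranger 3.1.0, Seurat 2.3.4 and the build mm10, with no role given. Gene positions came from GENCODE vM21 on GRCm38.

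Cells were filtered as described and clustered over both libraries with scanpy 1.11.5 and leidenalg 0.10.2, without member, receptor, immunoglobulin, mitochondrial and ribosomal protein genes (2000 variable genes, 30 components, 15 neighbours, Leiden resolution 1, seed 1). Memory-like and mixed clusters were clustered again on 15 components at resolution 0.8. Names came from thresholds on marker UMIs that were set after the clusters were seen. Scrublet called 1 CKO and 3 control doublets and so did not work, and doublets remain. UMIs were summed per class and library. Levels carry exact Poisson intervals and ratios exact conditional binomial intervals, which were tested on simulated data. PCR and cell sampling add error beyond them.

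Members and lists were chosen with earlier results of these data known. Named genes were all mitochondrial-genome members, the 2 highest and 2 lowest nuclear members per complex, the Sdh and measured Ndufaf genes, paralog sets, and the 2 highest and 2 lowest of each list, of which 1 gene is not reported here. Ndufb7, Ndufb8, Ndufs8, Ndufa11 and Atp5k were named after their values were seen. Alternatives changed the cell filter, the total, depth, doublets, sex, classes and the fold.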

Additional observations from a re-analysis of the deposited data

Results flagged for a closer look

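The mitochondrial-genome members had a log2 ratio of CKO over control of 0.0584 in effector-like CD8 cells (151 CKO and 46 control cells), above 0, whereas the ratio was below 0 in all T cells (−0.24). In NKT-like cells, of which the CKO library held 4 and the control 23, the ratio was 0.1072. With 1 library per group the differences from the other classes were not tested.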

How the results depend on the processing

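The nuclear sums in all T cells, naive-like CD4 and naive-like CD8 cells kept their sign under every alternative run. So did the mitochondrial sum in all T cells. The sums of the other classes were not run under these alternatives. Some clusters differed in sign from their class, as the nuclear sum of Tnfrsf9 cluster 10.5 (−0.10) and the mitochondrial sum of memory-like CD4 cluster 5.8 (0.29). Single members changed sign with the total: 77 of 78 measured nuclear members were higher over all UMIs. Outside mitochondrial and ribosomal protein genes 71 of 78 were. All values are log2 ratios of CKO over control unless counts are named. The nuclear sum in all T cells was 0.18 without the limit on the mitochondrial share, 0.13 under the stricter filter (1000 genes, 5% mitochondrial), 0.16 over UMIs outside mitochondrial genes, 0.12 over UMIs outside mitochondrial and ribosomal protein genes, 0.12 when centred on all genes, 0.18 in cells of 4000 to 8000 UMIs, 0.15 in cells with a Y-linked UMI and 0.19 with classes weighted as in the control. The mitochondrial sum under those settings was −0.28, −0.13, −0.26, −0.30, −0.30, −0.24, −0.26 and −0.23. It was −0.25 in cells with Xist and no Y-linked UMI, −0.23 after thinning to 2000 UMIs and −0.24 without the proliferating-like, Tnfrsf9 and mixed clusters. In naive-like CD4 cells the nuclear sum was 0.17 with the stricter filter, 0.16, 0.14 and 0.13 under the 3 other scales, 0.18 at 4000 to 8000 UMIs, 0.18 and 0.16 in cells with Y-linked and with Xist UMIs, 0.18 without cluster 4 and 0.15 in cluster 4 alone. In naive-like CD8 cells it was 0.18 with the stricter filter, 0.20, 0.16 and 0.15 under the other scales, 0.20 in cells with Xist UMIs and 0.22 at Leiden resolution 0.5. The count of nuclear members at least 1.2-fold higher in all T cells was 13. It was 7 with the stricter filter, 4 outside mitochondrial and ribosomal protein genes, 4 when centred, 56 at 1.1-fold and 1 at 1.5-fold, and the share of all genes past the fold was then 7.37%, 5.86%, 5.86%, 29.4% and 0.983%. The weighted values, the values by cluster 4, by memory-like CD4 cluster, by Treg-like cluster and by Tnfrsf9 cluster, and those without activated clusters were chosen after seeing the data. The classes were not remade without the limit on the mitochondrial share, since the removed cells hold no class. The values without that limit add the removed barcodes of at least 500 genes to the T cells. No paired analysis was possible because each group is 1 library. Leaving out a replicate was not possible for the same reason. The spread between mice is unknown.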

Other observations

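Cox6a2, the heart and muscle form of a complex IV subunit, had few UMIs, and a large part of them lay in single cells. One control B-like cell held 39 of its UMIs, and that cell also had a Siglech UMI, a marker of plasmacytoid dendritic cells. In the CKO library, 13 of the 22 Cox6a2 UMIs of T cells lay in 3 cells of the Fcer1g cluster, 10 of them in 1 cell. In the control library, 7 of the 15 lay in 2 cells of mixed clusters, 6 of them in 1 cell. None of these T cells had a Siglech UMI.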
